A study of Mus musculus with 6 samples.

Results

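The mouse alkaline phosphatase family was represented by 4 of the 23441 genes in the count table: Akp3, Alppl2, Alpi and Alpl. They were found by gene symbol, and no other row of the table carried a name of this family. The set had been picked from the same comparison of genotypes that is described here, with the values of these genes in view, so their differences between genotypes are given as a description without a test. Akp3 and Alppl2 were read in the conditional knockout libraries alone, Alpl in both genotypes, and Alpi hardly at all.

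Polyadenylated RNA was sequenced from mouse retina at embryonic day 14.5 in 3 control and 3 conditional knockout (CKO) libraries. Both groups carried floxed alleles of Ronin, the zinc finger transcription factor encoded by Thap11, in a mixed background of C57/B6, SJL/B6, 129/Sv and FVB. The CKO group carried in addition 1 transgene in hemizygous form (+/tg) that expresses Cre fused to GFP in retinal progenitor cells. The controls had no Cre transgene. Loss of Ronin and presence of the transgene therefore cannot be told apart in any difference between the groups.

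Alkaline phosphatases are enzymes that remove phosphate groups from many substrates at alkaline pH and sit on the outer face of the cell membrane through a glycosylphosphatidylinositol (GPI) anchor. Alpl encodes the tissue-nonspecific enzyme, known for breaking down pyrophosphate in mineralising bone and for freeing vitamin B6 from its phosphate so that it can enter cells. Akp3 and Alpi encode intestinal enzymes, and Alppl2 an embryonic enzyme known from the early embryo. The human placental enzyme, a close relative of these last enzymes, is widely used as a stainable reporter. A Cre line in common use for retinal progenitors, in which Cre is fused to GFP, carries that reporter behind the Cre sequence. The labels do not say whether the transgene in these mice held it. Reads of such a reporter and reads of the mouse genes cannot be told apart in counts per gene symbol.

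The libraries held 23721052 to 28504391 counted reads. Levels are given in CPM, counts per 1000000 reads of the scaled library. The 3 control libraries, in replicate order, held Thap11 at 68.3, 82.0 and 71.6 CPM, and the 3 CKO libraries held it at 11.2, 10.9 and 6.38 CPM. Thap11 fell by 2.96 ± 0.24 on the log2 scale (SE; Benjamini-Hochberg adjusted p = 0.00425, quasi-likelihood test of edgeR). All 11 retinal markers were detected, with a summed level of 6930.2 to 7434 CPM in the controls and 6435 to 6840.1 CPM in the CKO. Ccnd1 held 56.1% of these reads, and the groups overlapped without it (2914 to 3129 CPM in the controls, 2928 to 3064 CPM in the CKO). All 11 were tested, and 0 were called with edgeR, DESeq2 or limma-voom. In whole tissue, fewer cells of a type and less RNA per cell cannot be told apart. The labels do not say whether libraries came from separate animals, and the p-values rest on a spread between libraries that may be technical. Control replicate 2 stood apart with the lowest scaling factor of the 6 libraries (0.921), and CKO replicate 1 stood apart in lens genes.

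Akp3 was read in every CKO library and in no control. It had 0 reads in each of control replicates 1, 2 and 3 and 146, 161 and 173 reads in CKO replicates 1, 2 and 3. On the CPM scale the CKO libraries stood at 5.05, 6.01 and 7.08, with 95% counting intervals (exact Poisson) of 4.27 to 5.94, 5.12 to 7.01 and 6.06 to 8.21 CPM. The groups did not overlap, and CKO replicate 3 was the highest and replicate 1 the lowest of the expressing libraries. The CKO mean was 6.05 ± 1.01 CPM (SD, n = 3). With the control group set to the limit of 3 counts over its 3 libraries, 0.0402 CPM, the CKO mean was at least 150-fold higher. Such intervals and limits describe counting error alone, because without molecular identifiers several reads can stem from 1 molecule.

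Alppl2 showed the same division between genotypes at a lower level. It had 0 reads in each control and 88, 99 and 101 reads in CKO replicates 1, 2 and 3, or 3.05, 3.70 and 4.13 CPM. The order of the 3 CKO libraries was that of Akp3, again with no overlap between groups. The CKO mean was 3.62 ± 0.55 CPM (SD, n = 3), at least 90.2-fold higher than the limit of 3 counts over the controls. Among all 14609 tested genes, 5.74% had every CKO library above every control. Since Akp3 and Alppl2 were chosen for this separation, nothing is read from their place in that share.

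The reads of the expressed pair were divided between both genes in similar proportions in the 3 CKO libraries. Akp3 took 62.4% of the 234 reads of the pair in CKO replicate 1 (95% exact Clopper-Pearson interval 55.8 to 68.6%), 61.9% of 260 in replicate 2 (55.7 to 67.9%) and 63.1% of 274 in replicate 3 (57.1 to 68.9%). The ratio of Akp3 to Alppl2 reads was thus 1.66, 1.63 and 1.71. These intervals overlap almost wholly, so no difference in the split was detectable at this depth.

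**Figure D1:**
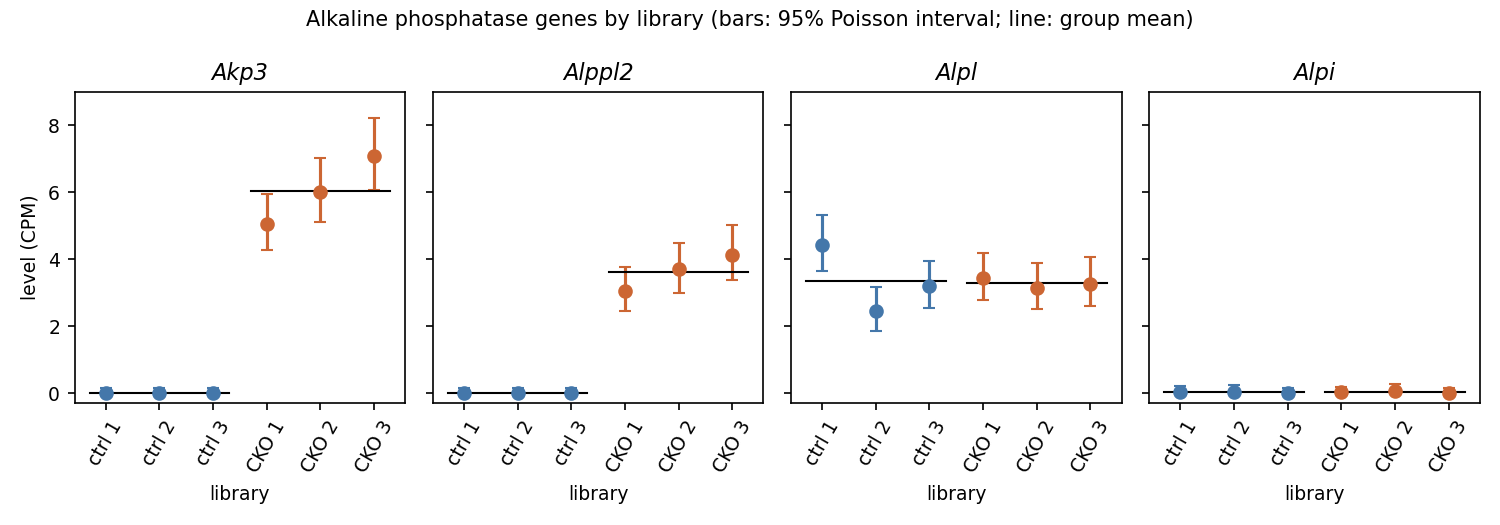
Level of the 4 alkaline phosphatase genes in each of the 6 libraries in CPM, with 95% Poisson intervals as bars and the mean of each genotype as a line. Akp3 and Alppl2 lie at 0 in all controls and between 3.05 and 7.08 CPM in the CKO libraries, while Alpl has similar levels in both genotypes and Alpi lies near 0 throughout.

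Alpl, the tissue-nonspecific gene, was read in both genotypes at similar levels. Control replicates 1, 2 and 3 had 113, 56 and 84 Alpl reads, and the CKO replicates had 99, 84 and 80. Scaled to depth, the controls lay at 4.44, 2.44 and 3.198 CPM, the CKO libraries at 3.43, 3.14 and 3.27 CPM. The CKO libraries all lay inside the range of the controls, in which replicate 1 was the highest and replicate 2 the lowest. The control mean was 3.36 ± 1.01 CPM and the CKO mean 3.28 ± 0.15 CPM (SD, n = 3 each), which is a CKO to control ratio of 0.976.

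Alpi, the intestinal gene that lies between Alppl2 and Akp3, was close to the detection limit. Control replicates 1, 2 and 3 had 1, 1 and 0 Alpi reads and the CKO replicates 1, 2 and 0, which makes 2 control and 3 CKO reads in all. Both groups were at or under the limit of 3 counts, and no fold is given. Alpi was also the only member removed by the filter on low counts, which the other 3 passed. Akp3 and Alppl2 passed it through their CKO libraries alone.

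Levels of different genes are compared per kilobase of the longest protein-coding transcript model (GENCODE M21). In the CKO retina Akp3 was the highest at 3.60 ± 0.60 CPM per kilobase, followed by Alppl2 at 1.73 ± 0.26, Alpl at 1.30 ± 0.06 and Alpi at 0.0156 ± 0.0160 (SD, n = 3). In the controls Alpl led at 1.33 ± 0.40 CPM per kilobase, with Alpi at 0.0118 ± 0.0103 and Akp3 and Alppl2 at 0. In each CKO library Akp3 lay above Alppl2 on this scale. Alppl2 and Alpl were close, with the lowest Alppl2 library at 1.46 and the highest Alpl library at 1.36 CPM per kilobase. The Akp3 model of 1680 bases holds no untranslated region, unlike the Alppl2 model of 2092 bases, the Alpi model of 2337 bases and the Alpl model of 2522 bases, so that its value per kilobase is relatively high. All these levels were low for this tissue: by mean CPM in the CKO, 41.5% of the 19085 genes with reads lay below Akp3, 37.8% below Alppl2 and 37.1% below Alpl.

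Summed over the 4 genes, the family had 114, 57 and 84 reads in control replicates 1, 2 and 3. The CKO replicates had 334, 346 and 354. Control libraries averaged 3.39 ± 1.01 CPM for this sum and CKO libraries 12.99 ± 1.46 CPM (SD, n = 3 each), a ratio of 3.83. Alpl made up nearly all reads of the family in the controls. In the CKO, the clustered genes Akp3, Alppl2 and Alpi took 70.4%, 75.7% and 77.4% of the family's reads in replicates 1, 2 and 3. The corresponding shares of the controls were 0.877%, 1.75% and 0%.

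The coding sequences of the 4 genes were compared, since counting by gene depends on how far reads of relatives can be separated. Coding sequences of Akp3 and Alppl2 were identical at 78.4% of aligned bases, those of Akp3 and Alpi at 81.8%, and those of Alppl2 and Alpi at 81.7%. Alpl was identical to the other 3 at 65.1% to 66.3%. The longest exact match between Akp3 and Alppl2 was 40 bases, against 68 bases between Akp3 and Alpi, 50 bases between Alppl2 and Alpi, and at most 18 bases between Alpl and the others. The 40-base stretch is printed here, 5′ to 3′, with the corresponding bases of Alpi and Alpl, to show how near the members come to each other. Capitals mark bases that differ from Akp3 (GENCODE M21, GRCm38).
Akp3 stretch: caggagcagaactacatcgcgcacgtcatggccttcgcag
Alppl2 stretch: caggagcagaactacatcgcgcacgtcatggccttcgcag
Alpi stretch: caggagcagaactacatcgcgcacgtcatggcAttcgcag
Alpl stretch: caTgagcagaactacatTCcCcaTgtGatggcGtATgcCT
Alpi differed from Akp3 at 1 of these 40 bases and Alpl at 11. Of all 50-base windows of the Akp3 transcript, 2.15% occurred without mismatch in another member, against 0.0489% for Alppl2, 1.57% for Alpi and 0% for Alpl, and no 100-base window was shared. Neither the read length nor the treatment of reads that fit several genes is given in the sources at hand. Alpi, the closest relative of Akp3 by coding sequence, had 0 to 2 reads in the libraries in which Akp3 had 146 to 173.

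Akp3, Alppl2 and Alpi lie next to each other with no other protein-coding gene between them, Akp3 on the plus strand and the other two on the minus strand. Their promoters are shown because the first pair was read in the CKO while the third was not. Each line gives the 250 bases before the annotated start, 5′ to 3′ on the strand of the gene, from RefSeq (GRCm38.p6): chr1:87124704-87124953 (plus strand) for Akp3, chr1:87089929-87090178 (minus strand) for Alppl2 and chr1:87101607-87101856 (minus strand) for Alpi. Capitals mark stretches of at least 9 bases that occur in all 3 promoters. The counts were made on mm9, and these coordinates were not used with them.
Akp3 promoter: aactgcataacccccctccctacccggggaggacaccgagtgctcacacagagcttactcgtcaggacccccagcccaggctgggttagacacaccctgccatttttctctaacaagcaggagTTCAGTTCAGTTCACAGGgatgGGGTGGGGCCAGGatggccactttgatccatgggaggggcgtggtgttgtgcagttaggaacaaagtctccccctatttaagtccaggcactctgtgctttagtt
Alppl2 promoter: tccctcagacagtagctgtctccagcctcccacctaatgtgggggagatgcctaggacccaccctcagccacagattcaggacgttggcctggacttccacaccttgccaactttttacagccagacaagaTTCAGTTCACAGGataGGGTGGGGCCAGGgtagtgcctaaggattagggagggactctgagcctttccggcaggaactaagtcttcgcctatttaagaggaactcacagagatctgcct
Alpi promoter: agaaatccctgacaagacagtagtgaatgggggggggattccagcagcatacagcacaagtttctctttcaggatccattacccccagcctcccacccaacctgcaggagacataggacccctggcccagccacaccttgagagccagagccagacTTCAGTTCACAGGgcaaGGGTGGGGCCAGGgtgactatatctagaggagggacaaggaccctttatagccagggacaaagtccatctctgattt
The 13 bases TTCAGTTCACAGG and the 13 bases GGGTGGGGCCAGG occurred in all 3 windows, in expressed and unexpressed members alike. The first block of Akp3 is longer, 18 bases, because the start of the shared stretch is repeated there with an overlap. TTCAGTTCACAGG was found in 0.0274% of 32851 promoter windows of this length (either strand) and GGGTGGGGCCAGG in 0.0457%. Those shares stand for 9 and 15 windows. Both strings were taken from the 3 promoters shown, whose windows are among those counted, so the shares are not an independent background. TATTTAA, searched after the sequences had been seen, begins 31 bases before the start of Akp3 and 30 bases before that of Alppl2, was not found in the Alpi window, and occurred in 4.18% of all windows. Stretches just after the annotated start were found in the GENCODE transcripts of Alppl2 and Alpi but not in those of Akp3. The position of the Akp3 start is therefore less certain. TATAAA was found in the Alpi window on the opposite strand alone. On the strand of the gene the match reads TTTATA and begins 33 bases before the start. Neither of the expressed pair held it on either strand (12.4% of all windows, either strand). ACTACA followed after any 2 bases by TCCCA, a part of the motif described for Ronin and its partners, was not found on either strand in the windows of these 3 genes or in the 2 windows of Alpl, and occurred in 1.35% of all windows. A match or its lack is a property of these letters only.

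The pattern for which Akp3 and Alppl2 were chosen was then looked up in all genes, with read limits set after their values were known, so their own place in these counts is a description that follows from the choice. At most 3 reads over the 3 controls with at least 20 reads in each CKO library were found for 3 of 23441 genes, or 0.0128%: Akp3, Alppl2 and Gja3. The reverse pattern was found for 0 genes. Gja3, which encodes a lens connexin, had 1 read in each control and 1204, 22 and 85 reads in CKO replicates 1 to 3, a spread over CKO libraries that Akp3 and Alppl2 did not have. With at least 50 reads asked of each CKO library, Akp3 and Alppl2 were the only genes left. Without CKO replicate 3 the count was 5, with Foxe3 and R3hdml added, and leaving out each of the other libraries gave 3 or 4. Of 4868 genes with 0 reads in all controls, 512 had any CKO reads. Akp3 with 480 and Alppl2 with 288 stood at the top of these 512, and R3hdml came next with 104, of which 83 lay in CKO replicate 1.

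**Figure D2:**
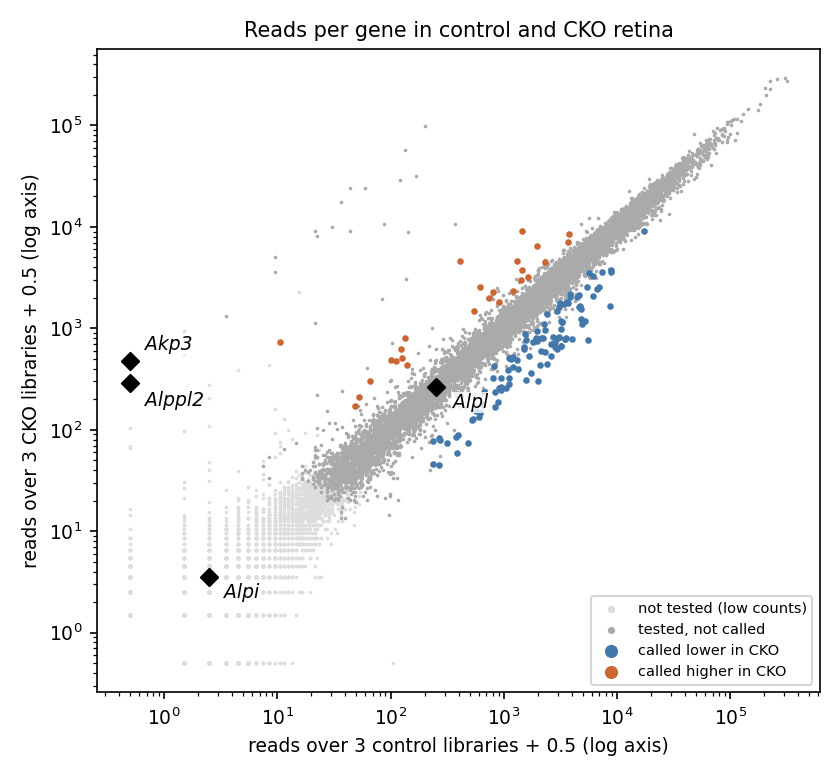
Reads per gene summed over the 3 control libraries (horizontal) and the 3 CKO libraries (vertical), each plus 0.5 and on a log axis, with genes called by edgeR in colour and the alkaline phosphatase genes as black diamonds. Akp3 (0 and 480 reads) and Alppl2 (0 and 288 reads) lie above all other genes at the left edge, Alpl lies on the diagonal and Alpi among genes with few reads.

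Likeness of pattern was measured as the root-mean-square difference over the 6 libraries of log2 CPM (prior count 0.5) after each gene's own mean was subtracted, among 15754 genes with at least 20 reads. Alppl2 was the gene most like Akp3 and Akp3 the gene most like Alppl2, at a distance of 0.37. Both had been chosen for this pattern and passed the minimum of 20 reads through the CKO alone, so their mutual likeness restates the choice. Next for both came 1700034P13Rik, an uncharacterised transcript with 5, 2 and 3 reads in the controls and 233, 271 and 224 in the CKO, at distances of 1.20 from Akp3 and 0.85 from Alppl2. Gja3 (1.98), Cryaa, which encodes a lens crystallin (2.20), and the forkhead transcription factor gene Foxa3 (2.29) followed for Akp3, and Gja3 (1.84), Foxa3 (1.96) and BC030307 (2.09) for Alppl2. Alpl lay far from both, at 4.15 and 3.78. With a prior count of 2, 3 of the 5 genes most like Akp3 stayed among its 5 nearest. The genes most like Alpl were Pcyox1, 2700060E02Rik, Rpf1, Rbbp4 and Vmp1, at distances of 0.02 to 0.03. Like Alpl, they were highest in control replicate 1 and lowest in control replicate 2, with the CKO libraries in between. The counting error of Alpl was large beside these distances, with an interval of 1.85 to 3.17 CPM around 2.44 CPM in control replicate 2. Which genes rank nearest to Alpl is therefore not resolved at this depth.

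The genes next to the members were measured in the same libraries. Around the cluster, the nearest 5 protein-coding genes with reads on each side were Dis3l2, Nppc, Cops7b, Pde6d and Ptma, and Ecel1, Prss56, Chrnd, Chrng and Eif4e2. Of these 10, 6 were tested and 0 passed in either direction (edgeR, 0 at an unadjusted p under 0.05, 0 with DESeq2 and 0 with limma-voom), with a median log2 fold change of -0.03, beside -0.03 over all tested genes. Over all 14609 tested genes 0.897% were called, 0.192% higher and 0.705% lower, and 2.22% were higher and 4.36% lower at an unadjusted p under 0.05. A count of 0 among 6 tested genes is near that background and says little about the locus. Dis3l2, an RNA exonuclease gene next to Alppl2, averaged 70.8 ± 23.7 CPM in controls and 71.9 ± 1.08 CPM in CKO libraries (edgeR log2 fold change 0.02 ± 0.23 SE). Ecel1, a membrane peptidase gene next to Akp3, had 842, 887 and 890 reads in the controls and 1900, 1229 and 561 in the CKO (log2 fold change 0.35 ± 0.34). Ecel1 groups overlapped, and its CKO order was opposite to that of Akp3. Chrng, a subunit of the fetal muscle acetylcholine receptor, was not tested, because too few libraries reached the minimum count of the filter. It had 0, 1 and 3 control reads and 345, 2 and 38 CKO reads, high in the library with the most lens RNA. Rap1gap and Ece1, which flank Alpl, averaged 45.3 ± 9.66 and 71.2 ± 14.2 CPM in controls and 46.6 ± 5.82 and 68.8 ± 6.58 CPM in CKO libraries. None of the 10 neighbours of Alpl passed (edgeR, median log2 fold change -0.16, 1 lower at an unadjusted p under 0.05, 0 with DESeq2 and 0 with limma-voom). The part of the transgene in the reads of Akp3 and Alppl2 was not tested.

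**Figure D3:**
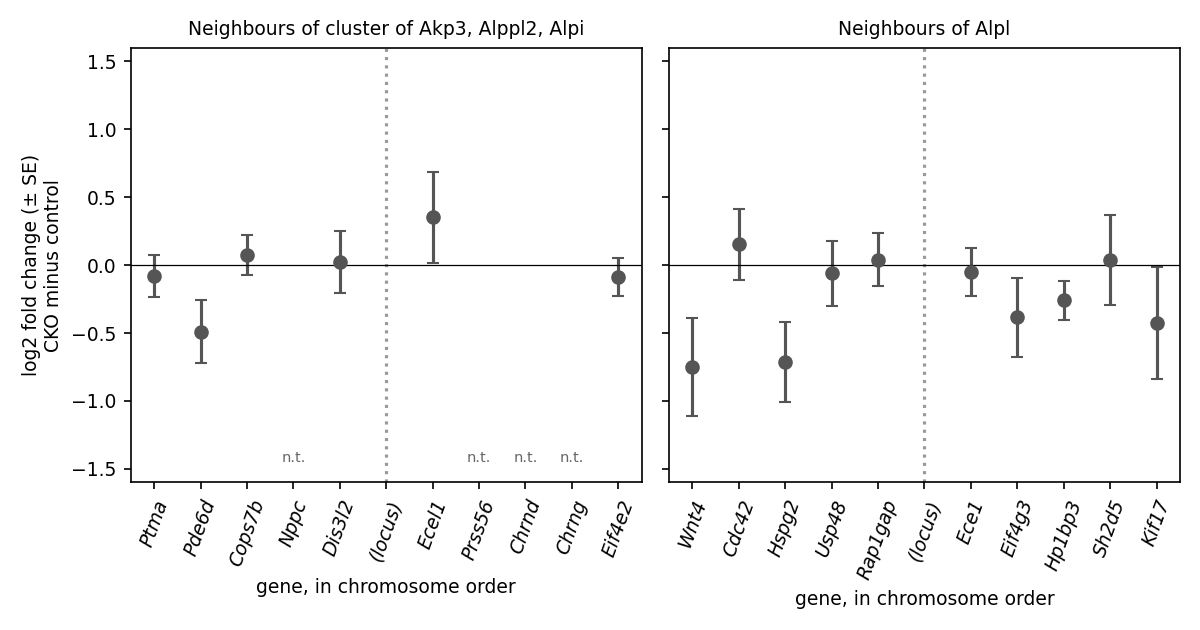
Log2 fold change, CKO minus control, with its SE (edgeR) for the nearest 5 measured protein-coding genes on each side of the Akp3, Alppl2 and Alpi cluster and of Alpl, in chromosome order (n.t., not tested, as too few libraries reached the minimum count). No tested neighbour passed the threshold, and their values lie between -0.75 and 0.35.

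Markers of tissues in which these enzymes are known, and of tissues next to the retina, were followed beside the members. Of 14 intestinal epithelium markers, 5 had 0 reads in all 6 libraries, among them the enterocyte genes Fabp1, Fabp2 and Sis and the regulator Cdx2, and the list summed to 2.04 to 3.62 CPM in the controls and 2.76 to 2.99 CPM in the CKO. Of 11 trophoblast markers, 5 were at 0 throughout (Esx1, Gcm1, Hand1, Prl2c2 and Tpbpa), with sums of 73.3 to 104 CPM in the controls and 75.5 to 82.5 CPM in the CKO. Eomes, which is also expressed in retinal ganglion cells, held 92.0% of the reads of that list, and the other 10 markers summed to 4.52 to 8.34 CPM in the controls and 6.42 to 7.41 CPM in the CKO. Of 13 pluripotent and germ cell markers, Dppa3, Dppa4 and Tdgf1 were at 0, with sums of 4.87 to 6.33 CPM in the controls and 3.66 to 4.05 CPM in the CKO. In none of these 3 lists was the CKO sum above the range of the controls, with or without the most abundant marker of the list. The pluripotent and germ cell sum lay below every control in each CKO library, also without Esrrb (3.08 to 4.04 CPM in the controls, 2.11 to 2.20 CPM in the CKO). Of its 3 tested markers 0 passed (edgeR, 1 lower at an unadjusted p under 0.05, 1 lower with DESeq2, 0 with limma-voom). Over all tested genes, 4.36% were lower at that unadjusted p.

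Lens marker sums lay above every control in all 3 CKO libraries and were uneven among them. Of the 9 tested lens markers 0 passed (edgeR, 9 higher at an unadjusted p under 0.05, 9 higher with DESeq2, 0 with limma-voom). Among all 14609 tested genes, 5.74% had every CKO library above every control, and 6.91% had every CKO library below. In edgeR 2.22% were higher and 4.36% lower at an unadjusted p under 0.05. DESeq2 called 117 of the 14609 genes higher and 209 lower, and limma-voom 27 and 93. The 11 lens markers, none at 0 throughout, summed to 10.6 to 15.5 CPM in the controls and to 8031, 58.3 and 523 CPM in CKO replicates 1, 2 and 3. Akp3 stood at 5.05, 6.01 and 7.08 CPM in the same 3 libraries. Without CKO replicate 1 the CKO mean was 6.53 CPM for Akp3 and 3.90 CPM for Alppl2, with 0 control reads for either, and the remaining CKO libraries still held lens RNA. The part of lens tissue in the reads of Akp3 and Alppl2 was not tested. Endothelial markers, beside which Alpl is of interest because the tissue-nonspecific enzyme is known from brain vessels, summed to 291 to 346 CPM in the controls and 253 to 275 CPM in the CKO over 10 genes, none at 0. Kdr, which is also expressed in retinal progenitors, held 87.6% of these reads, and the other 9 markers summed to 39.7 to 49.5 CPM in the controls and 21.0 to 37.6 CPM in the CKO. All 10 were tested and 0 passed (edgeR, 2 lower and 0 higher at an unadjusted p under 0.05, 1 lower with DESeq2, 0 with limma-voom). Mesenchyme and bone markers (12, none at 0) summed to 85.2, 197 and 94.2 CPM in control replicates 1 to 3, highest where Alpl was lowest, and to 67.7 to 85.8 CPM in the CKO. Of these, 8 were tested and 0 passed (edgeR, 1 lower at an unadjusted p under 0.05, 0 with DESeq2 and limma-voom). Pigment epithelium markers (8, none at 0) summed to 65.3, 36.2 and 32.9 CPM in control replicates 1 to 3, and to 29.0 to 31.4 CPM in the CKO. Every CKO sum lay below every control. Without Trpm1 the groups overlapped (9.82 to 22.8 CPM in the controls, 9.45 to 11.8 CPM in the CKO). Of the pigment epithelium markers, 5 were tested and 0 passed (edgeR, 2 lower at an unadjusted p under 0.05, 0 with DESeq2 and limma-voom). The pigment epithelium sum was highest in the control where Alpl was highest, but not lowest where Alpl was lowest. The part of vessels, mesenchyme and pigment epithelium in the levels of the members was not tested.

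**Figure D4:**
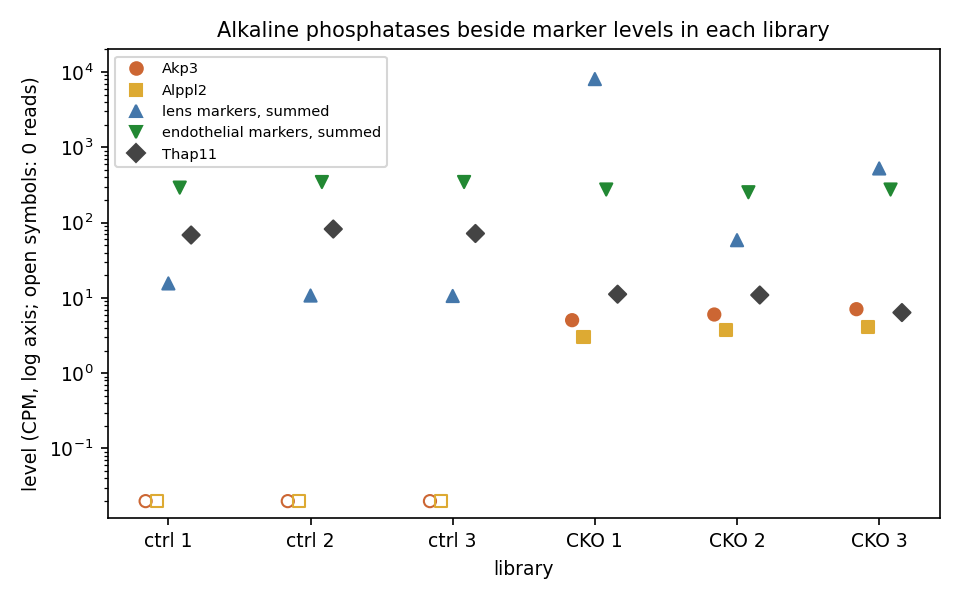
Level in each library, in CPM on a log axis, of Akp3, Alppl2, Thap11 and the summed lens and endothelial markers, with open symbols for 0 reads drawn at the bottom. The endothelial sum is mostly Kdr (87.6% of its reads). Lens markers range from 58.3 to 8031 CPM over the CKO libraries while Akp3 ranges from 5.05 to 7.08 and Alppl2 from 3.05 to 4.13 CPM.

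Genes that work with alkaline phosphatases were followed as lists, to be read against the 0.192% of all tested genes called higher and the 0.705% called lower, or 2.22% and 4.36% at an unadjusted p under 0.05. In phosphate and pyrophosphate handling, 9 of 13 genes were tested and 0 passed in either direction (edgeR, 1 lower at an unadjusted p under 0.05, 0 with DESeq2 and limma-voom), with a median log2 fold change of 0.06. Its most abundant member Xpr1, a phosphate exporter gene, stood at 321 ± 82.8 and 334 ± 24.2 CPM in control and CKO (SD, n = 3 per group). In vitamin B6 metabolism, 4 of 5 genes were tested and 0 passed (edgeR, 0 at an unadjusted p under 0.05, 0 with DESeq2 and limma-voom, median 0.26), with Prosc, a pyridoxal phosphate binding protein, at 41.4 ± 2.25 and 47.9 ± 3.23 CPM. All 29 genes of GPI anchor synthesis and attachment were tested and 0 passed (edgeR, 1 lower at an unadjusted p under 0.05, 1 lower with DESeq2, 0 with limma-voom, median 0.13). Pigt, a subunit of the transamidase that attaches the anchor, stood at 110 ± 4.83 and 120 ± 7.33 CPM. The gene that DESeq2 alone called was Dpm3, a subunit of dolichol-phosphate mannose synthase, at a log2 fold change of -0.96 ± 0.27 (SE, DESeq2 adjusted p = 0.0205, edgeR adjusted p = 0.225).

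Acid phosphatases, a separate family of phosphate-removing enzymes, had 7 genes in the table, of which 4 were tested, 0 rose and 1 fell (median -0.02), where 0.192% of all tested genes rose and 0.705% fell. Acp6, a lysophosphatidic acid phosphatase, went from 14.5, 15.7 and 15.95 CPM in the controls to 6.20, 5.34 and 7.40 CPM in the CKO. The groups did not overlap, a separation with the CKO below the controls that 6.91% of tested genes had. Its log2 fold change was -1.29 ± 0.18 (SE, edgeR adjusted p = 0.0206). Leaving out control replicate 3 (adjusted p = 0.131) or any 1 of CKO replicates 1, 2 and 3 (0.155, 0.134 and 0.0932) ended this call, while the log2 fold change stayed at -1.23, -1.27, -1.18 and -1.42 in that order, and the adjusted p of all alternatives together spanned 4.3e-08 to 0.155.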

How the data were processed

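Polyadenylated RNA of 6 retina libraries, 3 per genotype, was assigned to groups from the sample titles. The authors deposited 1 table of raw read counts per gene symbol. The tools listed per the submitters' processing notes are HTSeq 0.5.4p3, BWA 0.7.6a-r433 and DESeq 2.13, on build mm9. Their settings and the strandedness of the reads are not recorded there. The table ended in 4 marker or blank lines, which were skipped, and 1 repeated gene, which was kept once. Every named row is a gene.

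The test was that of edgeR 4.0.16 in R 4.3.3 (filterByExpr, minimum count 10, 14609 genes kept; TMM scaling; quasi-likelihood F test of CKO against control without covariates; Benjamini-Hochberg adjustment over all tested genes, threshold 0.05), after the script had been tested on simulated data. The SE given with an edgeR log2 fold change was derived from the test, as its absolute value divided by the square root of the F statistic. CPM were computed on TMM-scaled library sizes. No 2 libraries agreed within sampling noise (lowest chi-square per degree of freedom 5.77). Promoters came from RefSeq (GRCm38.p6), with all 4 members matched by symbol, and transcripts from GENCODE M21, whose coding sequences were aligned globally with Biopython 1.88. The reference served for names, gene order and sequences, since its build differs from mm9.

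The members and gene lists were chosen with earlier results of these data known. Genes named in the text were the members, Thap11, the neighbours of the cluster and of Alpl, called members of each pathway list (up to 3) or else its most abundant member, up to 6 genes read in 1 genotype, and the 5 genes most like Akp3, Alppl2 and Alpl. One further locus set out in the plan is not reported here. R3hdml, Foxe3 and Dpm3 were named after their values were seen. Alternatives were DESeq2 size factors, library size only, no filter, at least 1 CPM in 3 libraries, DESeq2 1.42.0, limma-voom (limma 3.58.1), each library left out, a replicate block, a prior count of 2 for likeness, and, added after the data were seen, other read minimums and left-out libraries for the on and off pattern.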

Additional observations from a re-analysis of the deposited data

How the results depend on the processing

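The mean CPM of Akp3, Alppl2, Alpi and Alpl in each genotype moved by no more than 1 SD in all 64 alternatives run for them. These were DESeq2 size factors, library size only, and each library left out. Leaving out 1 of 3 libraries can hardly move a mean further than that, so this count says little about stability. Akp3 and Alppl2 had 0 control reads in each alternative, since neither rescaling nor leaving out libraries can add reads. Thap11 passed the test in all 13 alternatives. Counts of called genes over the whole table moved with the tool and single libraries: DESeq2 called 117 higher and 209 lower, and leaving out 1 library gave 6 to 72 higher and 10 to 147 lower. In the lists, DESeq2 called 1 GPI anchor gene lower. Leaving out 1 library gave 0 to 1 acid phosphatases lower. The replicate numbers do not pair the libraries by any label, and deviations of same-numbered libraries from their group means correlated at 0.336, 0.107 and -0.00775 for replicates 1 to 3, of which replicate 1 alone correlated best with its own number. With the replicate block edgeR called 40 genes higher and 113 lower. The depth limits Alpi, whose 5 reads over 6 libraries allow no comparison.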
